A study of Mus musculus with 6 samples.

Results

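A set of mouse genomic regions was examined that carried 5-hydroxymethylcytosine (5hmC) in fibroblasts and in induced pluripotent stem (iPS) cells, and that had no 5hmC peak in the fibroblasts after 3 days of reprogramming. The members, called interrupted peaks below, are the peaks of the fibroblast 5hmC list that overlap an iPS 5hmC peak by at least 1 bp and no day-3 5hmC peak. They numbered 14540 of the 42301 fibroblast 5hmC peaks, or 34.4%. They were chosen by presence or absence in the 3 lists of 5hmC peaks, so their 5hmC is a description, and what can be read from the data is their 5-methylcytosine (5mC) in the 3 lists of the other mark. Absence means that the authors' caller listed no peak. It does not show that the mark was gone from the DNA.

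5mC is written by DNA methyltransferases, and TET enzymes oxidise it to 5hmC. 5hmC can be an intermediate on the way to unmethylated cytosine or can persist as a mark of its own. In somatic cells it is known from enhancers and gene bodies, and pluripotent cells express Tet1 and carry more of it than fibroblasts do. A region that holds both marks in a cell population can hold them on different molecules or at different cytosines.

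The material came from a secondary reprogramming system, in which cells of mice made from iPS cells already carry the inducible factors. All cells were of the OG2-GFP/Rosa26-M2rtTA strain. The fibroblasts were grown from mice derived from TSKM iPS cells and were taken at passage 4. The day-3 cells were such fibroblasts at passage 4, given doxycycline in ES medium over 3 days. The iPS cells were a line induced with Tet1, Sox2, Klf4 and c-Myc from this system, at passage 10 to 15. Inactivated feeder fibroblasts, on which this line was grown, were cleared by a short replating before collection. How many mice the fibroblasts came from is not stated in the labels. Each stage had 1 library per mark, 6 in all, and the read depth behind each list is unknown. No replicate error exists, so no test between stages was possible. Shares carry 95% Wilson intervals, which cover counting error only and treat neighbouring peaks as independent. Labelled cell types could not be checked against marker genes, because the lists hold positions on mm9 and no annotation of that build was used here.

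The remaining fibroblast 5hmC peaks served for comparison. All-stage peaks, 12389 in number, overlapped 5hmC at both later stages. Day-3-only peaks, of which there were 2800, overlapped day-3 but not iPS 5hmC. Fibroblast-only peaks, 12572 of them, overlapped neither.

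Interrupted peaks were of ordinary size for the fibroblast list. Their median width was 831 bp, with 616 bp at the 10th and 1093 bp at the 90th percentile, against a median of 815 bp over the whole list. Their median score, the peak caller's value, was 96.1 against 85.8 over the whole list. It lay between the medians of all-stage peaks, 124.73, and of fibroblast-only peaks, 67.3. The share of interrupted peaks was not highest among the best-scoring fibroblast peaks. Over 5 equal groups of the fibroblast list ranked by score, from lowest to highest, it was 25.8%, 30.6%, 35.8%, 41.6% and 38.2%, whereas the share of all-stage peaks was 16.4%, 19.1%, 23.7%, 32.4% and 54.9%.

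The overlap with iPS 5hmC was mostly a close superposition. The iPS peaks covered a median of 84.3% of an interrupted peak, and 95.2% of the interrupted peaks were covered over at least 50% of their length. Peak centres lay a median of 97 bp apart. Single iPS peaks accounted for 14203 of the overlaps, and 337 interrupted peaks touched more than 1 iPS peak. The 14802 iPS peaks involved made up 8.50% of the iPS 5hmC list. They ranked in the middle of that list, with a median score at percentile 48.1, against percentile 72.5 for the 12673 iPS peaks on all-stage peaks.

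The day-3 5hmC list helped to choose the interrupted peaks, so their distance to it is a description. The nearest day-3 5hmC peak lay a median of 7906 bp away, and for 25% of them it lay at least 23662 bp away. Of these peaks 12.1% (11.6 to 12.6) had a day-3 5hmC peak within 1 kb, and 55.6% (54.8 to 56.4) had one within 10 kb. Fibroblast-only peaks, which the same day-3 list also leaves out, were farther away, with 9.62% (9.11 to 10.1) within 1 kb and a median of 11380 bp. Counting day-3 peaks of either mark, 56.0% of interrupted and 35.8% of fibroblast-only peaks had one within 1 kb.

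**Figure D1:**
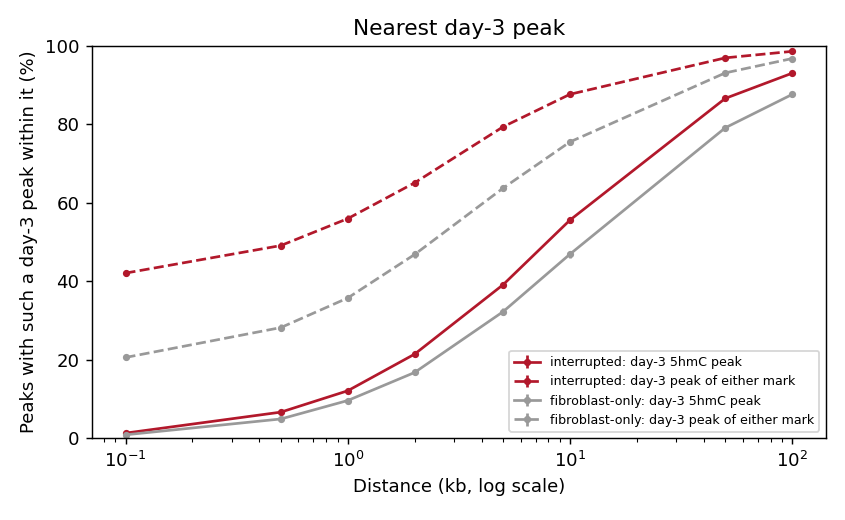
Share of interrupted peaks and of fibroblast-only peaks (%, y axis) that have a day-3 peak within a given distance (kb, log scale), for 5hmC alone (solid) and for either mark (dashed); bars are 95% Wilson intervals, mostly smaller than the points. Interrupted peaks lie above fibroblast-only peaks at each distance, at 55.6% against 46.9% within 10 kb for 5hmC.

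The edges of the rule hold few members. Interrupted peaks with a day-3 5hmC peak within 100 bp numbered 191, and all-stage peaks with 1 to 100 bp of day-3 overlap numbered 158. Day-3 5mC lay on 47.1% of these interrupted peaks and on 46.2% of these all-stage peaks. At the iPS edge, 147 interrupted peaks had an iPS 5hmC overlap of 1 to 100 bp, with iPS 5mC on 33.3% of them. A further 198 fibroblast-only peaks had an iPS 5hmC peak within 100 bp, with iPS 5mC on 23.2%.

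5mC was the mark that could be followed through all stages, including the one without 5hmC. Across the interrupted peaks, the fibroblast 5mC list met 26.2% (25.5 to 26.9), the day-3 list 40.0% (39.2 to 40.8) and the iPS list 30.5% (29.8 to 31.2). The same shares over all 42301 fibroblast 5hmC peaks were 27.2%, 41.4% and 24.7%. The fibroblast and day-3 shares of interrupted peaks were thus near the background, and the iPS share was above it. Day 3 had the highest share on 19 of 19 autosomes. The day-3 5mC list was also the longest of the 3, with 165869 peaks against 104011 in fibroblasts and 61171 in iPS cells, and a longer list gives more overlaps. When each list, the 5hmC lists included, was cut to its 42301 highest scores, the rule gave a different set of 5879 interrupted peaks. Their shares were 31.7%, 32.0% and 45.2%, and the highest was then that of iPS cells in place of day 3. In the full lists, where 5mC peaks overlapped, they covered medians of 85.1%, 85.5% and 87.9% of the interrupted peak.

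**Figure D2:**
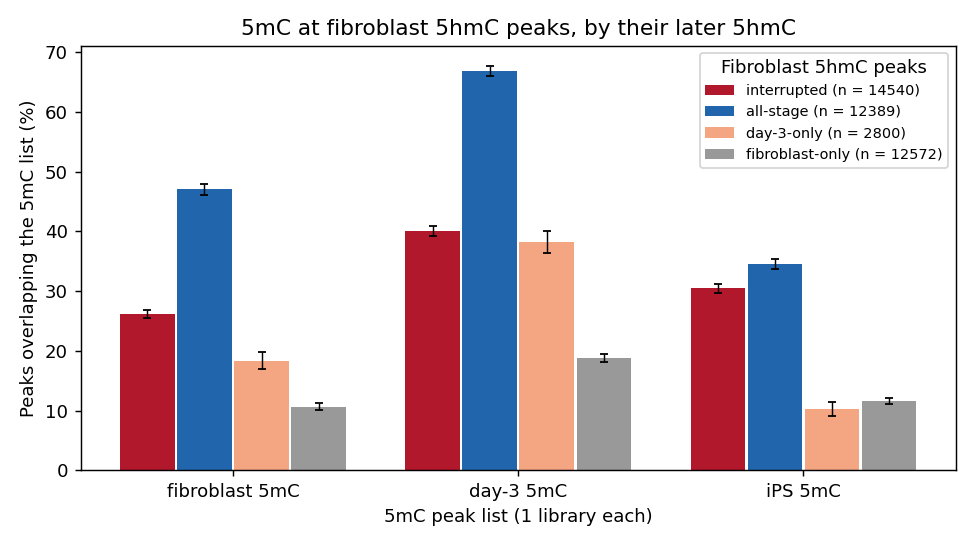
Share of fibroblast 5hmC peaks (%, y axis) that overlap a peak of each 5mC list (x axis), for interrupted, all-stage, day-3-only and fibroblast-only peaks; bars are 95% Wilson intervals. Interrupted peaks stand below all-stage peaks in fibroblasts (26.2% against 47.0%) and at day 3 (40.0% against 66.8%), and closer to them in iPS cells (30.5% against 34.5%).

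Against all-stage peaks, interrupted peaks carried less 5mC before the iPS stage and nearly as much in iPS cells. The fibroblast share was 26.2% for interrupted and 47.0% for all-stage peaks, a difference of -20.9 points (Newcombe interval -22.0 to -19.7). The day-3 share was 40.0% and 66.8%, a difference of -26.8 points (-27.9 to -25.7). The iPS share was 30.5% and 34.5%, a difference of -3.99 points (-5.11 to -2.86). Interrupted peaks were below all-stage peaks on each of the 19 autosomes for the first and second of these, and above them on 4 autosomes for the third. With every list cut to its 42301 highest scores, and both classes formed anew from these, the iPS difference turned to 4.84 points.

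Against the peaks that iPS cells did not list for 5hmC, interrupted peaks had more iPS 5mC. The share was 30.5% against 10.2% for day-3-only peaks and 11.6% for fibroblast-only peaks, and it was higher on 19 of 19 autosomes in both comparisons. The excess over fibroblast-only peaks was not confined to the iPS list. It was also found for fibroblast 5mC, at 26.2% for interrupted and 10.7% for fibroblast-only peaks, and for day-3 5mC, at 40.0% and 18.8%, again on 19 of 19 autosomes each. Median scores were 96.1 and 67.3. In the lowest of the 5 score groups the shares were 29.7% and 8.51% for fibroblast 5mC and 43.8% and 17.0% for day-3 5mC. In the highest they were closer, at 29.1% and 23.1%, and 40.0% and 28.4%. For iPS 5mC they were 49.0% and 30.0% in the highest group. At day 3, interrupted peaks had no 5hmC by choice and had 5mC about as often as the day-3-only peaks, which all had day-3 5hmC. The shares were 40.0% and 38.2% (36.4 to 40.0), and the interval of the difference, -0.13 to 3.80 points, includes 0. The classes differed in score, with medians of 96.1 and 75.1, and the difference changed sign along it. In the lowest of the 5 score groups the day-3 share was 43.8% (41.8 to 45.9) for interrupted and 37.5% (33.95 to 41.2) for day-3-only peaks, and in the highest it was 40.0% (38.3 to 41.7) and 50.9% (44.4 to 57.3).

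Taken by combination of stages, interrupted peaks without 5mC in any list were the most frequent, at 6856 peaks or 47.2% (46.3 to 48.0), near the 50.1% of all fibroblast 5hmC peaks. For all-stage peaks this share was 27.3%, and for fibroblast-only peaks 74.2%. The next combination was 5mC at all 3 stages, with 2034 interrupted peaks or 14.0%, near the 13.9% of all fibroblast 5hmC peaks. 5mC at day 3 alone was found at 1717 peaks or 11.8%, against 13.0% over all. 5mC in iPS cells alone was found at 1384 peaks or 9.52%, above the 5.69% over all. 5mC at both earlier stages and missing from the iPS list was found at 1290 peaks or 8.87%, against 10.5% over all, and at day 3 and in iPS cells but not in fibroblasts at 779 or 5.36%, against 4.03%. Fibroblast 5mC without day-3 5mC was rare. Without iPS 5mC it was found at 243 peaks or 1.67%, near the 1.71% over all. With iPS 5mC it was found at 237 peaks or 1.63%, above the 1.05% over all.

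**Figure D3:**
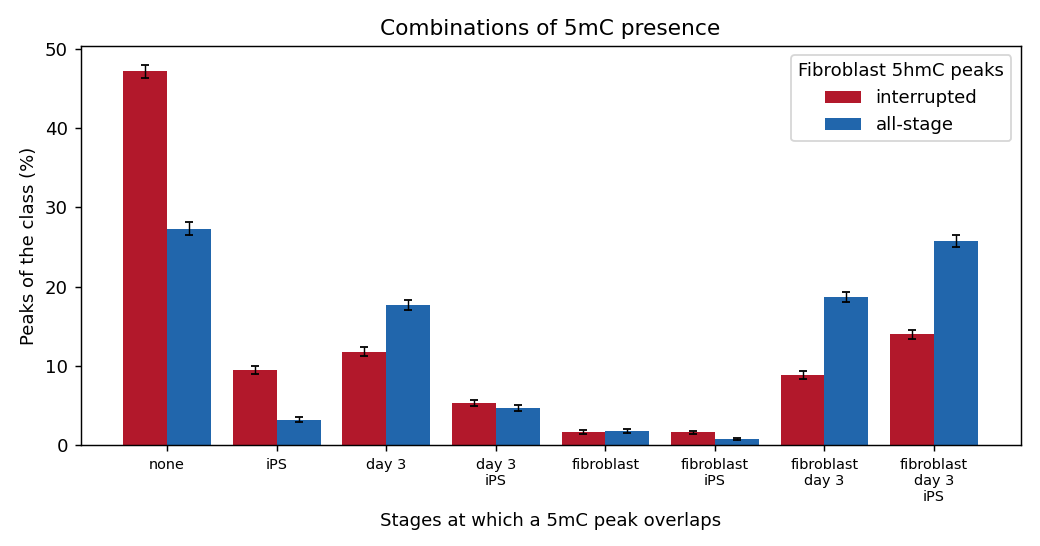
Share of interrupted and of all-stage peaks (%, y axis) in each of the 8 combinations of stages at which a 5mC peak overlaps (x axis); bars are 95% Wilson intervals. Interrupted peaks exceed all-stage peaks with 5mC at no stage (47.2% against 27.3%) and in iPS cells alone (9.52% against 3.24%), and all-stage peaks exceed them with 5mC at all 3 stages (14.0% for interrupted and 25.7% for all-stage peaks).

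Where an interrupted peak had 5mC in fibroblasts, the 5mC was usually listed straight through the stage at which 5hmC was missing. Of the 3804 interrupted peaks with fibroblast 5mC, 87.4% (86.3 to 88.4) had day-3 5mC, against 94.5% of all-stage peaks and 89.8% over all fibroblast 5hmC peaks. Of the 2271 with 5mC in fibroblasts and in iPS cells, 89.6% (88.2 to 90.8) had it at day 3 too, against 97.0% (96.4 to 97.6) of all-stage peaks and 93.0% over all. Both shares of interrupted peaks were thus near or slightly below the background, and most of these peaks had 5mC at the stage at which 5hmC was not listed. In iPS cells 59.7% (58.1 to 61.2) of the interrupted peaks with fibroblast 5mC were still on a 5mC peak. The share was 56.4% (55.1 to 57.7) for all-stage, 44.7% (42.1 to 47.4) for fibroblast-only and 34.4% (30.5 to 38.6) for day-3-only peaks. Over all fibroblast 5hmC peaks it was 55.2%.

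A smaller group had iPS 5mC without day-3 5mC. Interrupted peaks have iPS 5hmC and no day-3 5hmC by choice, so both marks were then listed in iPS cells and neither at day 3. The group comprised 1621 interrupted peaks or 11.1% (10.6 to 11.7). No peak of another class can have this combination of both marks, so the classes are compared by 5mC alone. The share with iPS 5mC and no day-3 5mC was 4.03% (3.70 to 4.39) in all-stage, 2.14% in day-3-only and 5.34% in fibroblast-only peaks. Over all fibroblast 5hmC peaks it was 6.74%. The share of interrupted peaks was the higher on 19 of 19 autosomes in each of these 3 comparisons. All-stage peaks without day-3 5mC are fewer to begin with. Of the peaks without day-3 5mC, 18.6% (17.8 to 19.4) of 8720 interrupted and 12.1% (11.2 to 13.2) of 4109 all-stage peaks had iPS 5mC. Counted this way, the difference from all-stage peaks was smaller. The share was 6.57% (6.11 to 7.07) of 10209 fibroblast-only and 3.47% of 1731 day-3-only peaks, and 11.5% over all. Put the other way, 63.4% (62.0 to 64.8) of the 4434 interrupted peaks with iPS 5mC had day-3 5mC, whereas 88.3% (87.3 to 89.2) of such all-stage peaks did. This share was 79.0% for day-3-only and 53.9% for fibroblast-only peaks, and 72.7% over all fibroblast 5hmC peaks. The nearest day-3 5mC peak of the 1621 lay a median of 2548 bp away, with 27.1% of them within 1 kb.

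These 1621 peaks had the highest median fibroblast score of the interrupted peaks divided by day-3 and iPS 5mC, although 4 of the 5 best-scoring interrupted peaks lay outside them. Their median fibroblast 5hmC score was 152.04 and their median width 924 bp. Interrupted peaks with 5mC at day 3 and in iPS cells had 107.78 and 875 bp, those with day-3 but no iPS 5mC 84.8 and 811 bp, and those with neither 90.3 and 805 bp. In the iPS 5hmC list the order differed, with a median score of 155.83 for peaks with 5mC at day 3 and in iPS cells and 132.99 for the 1621.

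The 5mC of interrupted peaks moved with their fibroblast 5hmC score in the iPS list and less so in the other lists. Over the 5 score groups, from lowest to highest, the iPS 5mC share was 22.4%, 21.6%, 24.4%, 30.3% and 49.0%. The day-3 share was 43.8%, 40.7%, 39.0%, 38.0% and 40.0%, and the fibroblast share was 29.7%, 25.5%, 24.9%, 22.9% and 29.1%. In the highest group iPS cells therefore had the highest share of the 3 stages. A higher iPS 5mC share at high scores was not particular to interrupted peaks. From the lowest to the highest group it went from 25.3% to 46.6% in all-stage and from 7.97% to 30.0% in fibroblast-only peaks. Over all fibroblast 5hmC peaks it went from 14.5% to 46.2%. The share of interrupted peaks with iPS 5mC and no day-3 5mC was 4.59%, 5.34%, 7.63%, 12.0% and 22.6% (21.2 to 24.1). In all-stage peaks the same share was 3.25%, 2.29%, 3.59%, 3.83% and 5.17% (4.57 to 5.85). Fibroblast-only peaks had a similar increase, at 3.21%, 4.27%, 5.88%, 9.98% (8.62 to 11.5) and 15.2% (11.8 to 19.2), so the relation to score was not particular to interrupted peaks. In every score group but the highest, the shares of interrupted and fibroblast-only peaks were closer than over the whole classes, 11.1% and 5.34%. In the highest group they were 22.6% and 15.2%. In the highest group the iPS 5mC share was 49.0% (47.3 to 50.7) for interrupted and 46.6% (45.1 to 48.0) for all-stage peaks, and the day-3 share was 40.0% and 74.9%. A wider peak has more room for overlaps, so peaks were also compared at like width. Among peaks from 1000 to below 1500 bp, iPS 5mC without day-3 5mC was found at 22.1% (20.4 to 23.8) of 2390 interrupted and 5.22% (4.51 to 6.03) of 3316 all-stage peaks. Below 750 bp the shares were 6.07% (5.43 to 6.79) and 2.70% (2.16 to 3.37), and from 750 to below 1000 bp they were 10.7% and 3.90%. At 1500 bp or more they were 17.3% (12.8 to 23.0) of 208 and 4.99% (3.45 to 7.16) of 541 peaks. Fibroblast-only peaks were not compared by width.

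**Figure D4:**
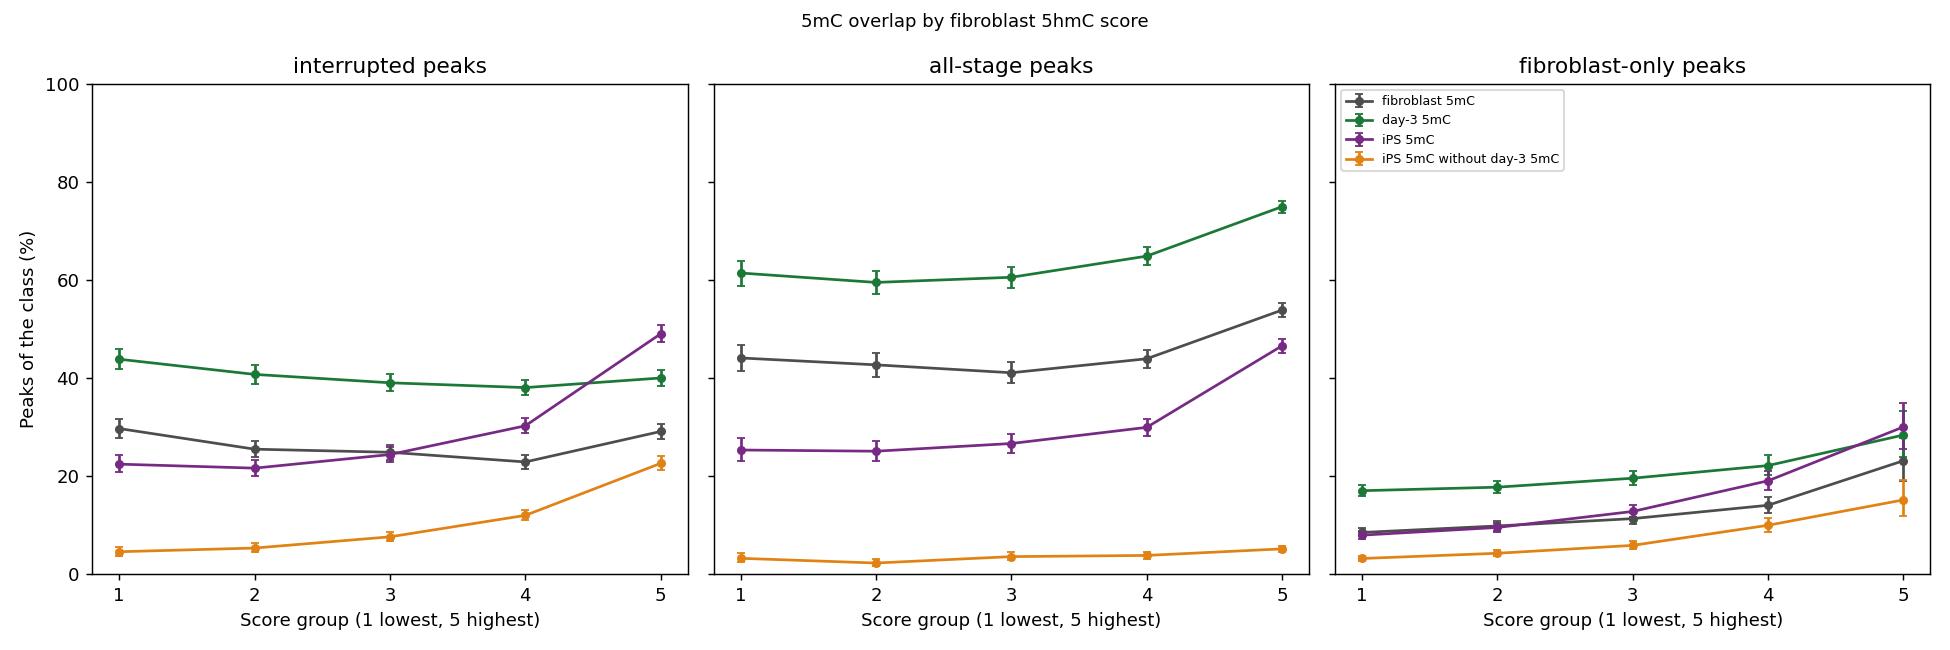
Share of peaks (%, y axis) on each 5mC list in 5 equal groups of the fibroblast 5hmC list by score (x axis), for interrupted, all-stage and fibroblast-only peaks (left to right); bars are 95% Wilson intervals. In interrupted peaks the iPS 5mC share is 22.4% in the lowest and 49.0% in the highest group. Their day-3 5mC stays between 38.0% and 43.8%. The iPS 5mC share is also higher in the highest than in the lowest group in the other panels. In fibroblast-only peaks iPS 5mC without day-3 5mC is also higher at high scores (3.21% and 15.2% in the lowest and highest group).

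5mC cover was highest at the centres of interrupted peaks and level from 1 kb outwards. Fibroblast, day-3 and iPS 5mC peaks covered 21.7%, 34.7% and 28.2% of the centres of interrupted peaks, and 9.14%, 13.1% and 5.20% of the positions 1 kb from them. At 5 kb the cover was 9.10%, 13.0% and 4.93%, close to that at 1 kb. Around fibroblast-only peaks the 5mC cover at 5 kb was lower, at 5.96%, 8.69% and 3.44%, and around all-stage peaks it was higher, at 12.8%, 18.8% and 7.01%. Both of these classes also had their highest 5mC cover at the centre. It was 8.73%, 15.9% and 10.7% for fibroblast-only and 41.1%, 60.4% and 31.0% for all-stage peaks. The 5hmC cover, from lists that divided the classes, is given as a description. At 5 kb, day-3 5hmC covered 6.43% of the positions around interrupted, 15.4% around all-stage and 5.06% around fibroblast-only peaks, and iPS 5hmC covered 14.8%, 22.2% and 9.00%.

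**Figure D5:**
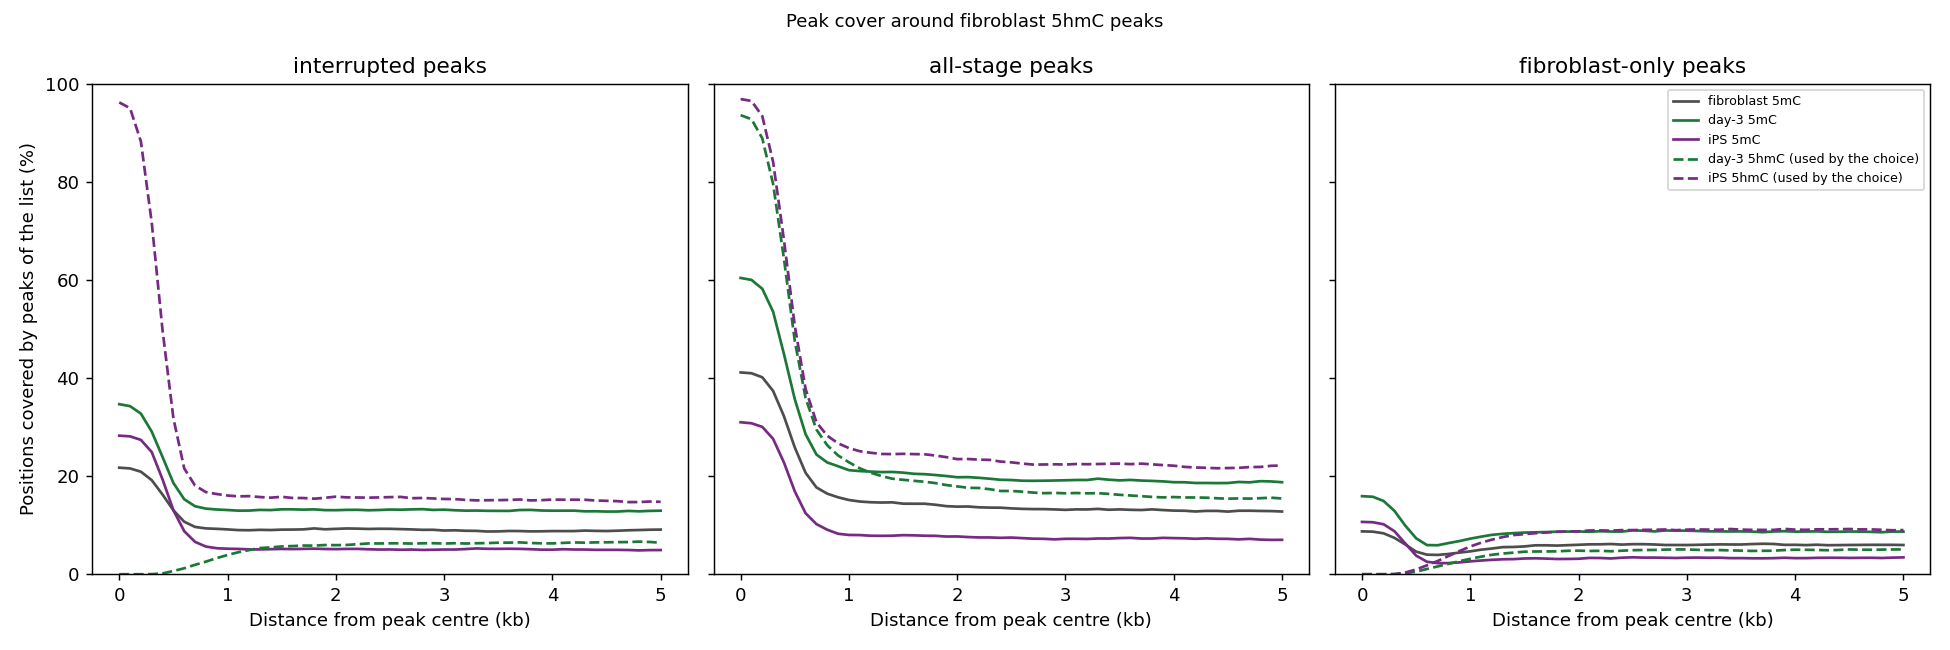
Share of positions covered by peaks of a list (%, y axis) against the distance from the centre of the fibroblast 5hmC peak (kb, x axis, both sides averaged), for interrupted, all-stage and fibroblast-only peaks (left to right); solid lines are 5mC, dashed lines the 5hmC lists that chose the peaks. In the left panel the 3 5mC lines fall from 21.7%, 34.7% and 28.2% at the centre to 9.14%, 13.1% and 5.20% at 1 kb.

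Interrupted peaks were spread over the genome. On the autosomes they made up 31.1% to 37.9% of the fibroblast 5hmC peaks. On chromosome X they were 69 of 297 or 23.2% (18.8 to 28.4), and on chromosome Y 2 of 70. iPS 5mC lay on 24.8% to 36.1% of the interrupted peaks of an autosome, and on 6 of the 69 on chromosome X. The nearest other fibroblast 5hmC peak was itself an interrupted peak for 38.1% (37.3 to 38.9) of interrupted, 30.5% (29.7 to 31.3) of all-stage and 35.7% (34.8 to 36.5) of fibroblast-only peaks, against 34.4% over all. Of the interrupted peaks 38.5% were the only one in their window of 100 kb, and 205 of the 8996 windows with an interrupted peak held 5 or more. These window counts were not made for the other classes, so they do not show whether interrupted peaks cluster.

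The windows with the most interrupted peaks are described next. Choosing them by this number favours windows with little day-3 5hmC, so their 5hmC cover is a description. On chromosome 4 from 152800001 to 152900000, all 10 fibroblast 5hmC peaks were interrupted. There the fibroblast, day-3 and iPS 5hmC peaks covered 9.20 kb, 0 kb and 23.3 kb, while 5mC peaks covered 17.9 kb, 23.0 kb and 15.6 kb. The complete lack of day-3 5hmC thus stood beside 19 day-3 5mC peaks, and 7 of the 10 interrupted peaks lay on one. On chromosome 5 from 113800001 to 113900000, 11 of 17 peaks were interrupted, and the cover by 5hmC was 14.5 kb, 0.999 kb and 31.9 kb in the same order of stages. 5mC covered 7.39 kb, 14.7 kb and 10.1 kb of that window. On chromosome 5 from 120000001 to 120100000, 11 of 14 peaks were interrupted, and 8 of these lay on iPS 5mC, 5 on day-3 5mC and 5 on fibroblast 5mC. The other two were on chromosome 2, from 167000001 to 167100000 with 10 of 17 peaks interrupted, and from 179200001 to 179300000 with 9 of 13. In the first of them 5hmC covered 9.27 kb at day 3, so that its day-3 list was not empty, and in the second it covered 1.98 kb.

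Single peaks show the range of 5mC states. The best-scoring and widest interrupted peak, on chromosome 15 from 19638098 to 19643448, had a score of 1695.21 and no 5mC in any list, and its nearest day-3 5hmC peak lay 316260 bp away. The peak beside it, from 19643533 to 19647941, was also among the 5 best-scoring and also had no 5mC. Both were covered by iPS 5hmC over 96.2% and 91.5% of their length. 5mC at all 3 stages was found at the best-scoring interrupted peaks on chromosome 18 from 81944228 to 81946346 and on chromosome 14 from 9025383 to 9026627. At the first of these, day-3 5mC covered the peak from 81944362 to 81946512 although the nearest day-3 5hmC peak was 39540 bp away.

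The remaining combinations are shown by their best-scoring member. On chromosome 16 from 69199598 to 69201102, 5mC was listed in fibroblasts and in iPS cells but not at day 3, so that both marks were interrupted, and the nearest day-3 5hmC peak lay 877400 bp away. On chromosome 8 from 91021670 to 91023773, 5mC was listed in iPS cells alone, from 91021550 to 91023394, in nearly the same place as the iPS 5hmC peak from 91021542 to 91023557. On chromosome 5 from 113124337 to 113126280, 5mC was listed at both later stages, whereas on chromosome 6 from 145787550 to 145789092 it was listed at day 3 alone. On chromosome 5 from 125279679 to 125281154 it was listed in fibroblasts and at day 3, and on chromosome 3 from 150284520 to 150285923 in fibroblasts alone. The 5mC peaks at the last 3 positions were shorter than the 5hmC peak that they overlapped.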

How the data were processed

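Genomic DNA was immunoprecipitated for 5hmC or 5mC and sequenced, with 500 ng of adaptor-ligated DNA per reaction and 14 to 16 amplification cycles, per the labels' protocols. Per the submitters' processing notes, CASAVA 1.8, Bowtie 0.12.7 and MACS 1.4.1 were used, with the mouse build mm9. Each deposited file lists the peaks of 1 library with a score per peak, which was read as 10 times the negative log10 of p and used only within a list. The sources used here name no control library, caller settings or read depth. Antibody capture depends on CpG density, and a deeper library gives more peaks.

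Overlaps were counted from 1 bp with Python 3.11.15, numpy 2.4.6, pandas 2.3.3 and scipy 1.17.1. Counting was tested on simulated data (10000 peaks, 0 wrong) and against bedtools 2.31.1 (5 list pairs, 0 different). Positions are counted from 1 on mm9. Shares have 95% Wilson intervals and differences of shares Newcombe intervals. The members, classes and results were chosen with earlier results of these data known. Regions named are the 5 best-scoring members, the best of each of the 8 5mC combinations, the widest, and the 5 windows of 100 kb with the most members. Alternatives were a minimum score of 100, overlaps from 50% of the fibroblast peak, its centre inside the other peak, lists cut to their 42301 highest scores, joining of peaks up to 1000 bp apart, restriction to autosomes, and a day-3 margin of 1000 bp. No mm9 sequence or annotation was used here, so no genes or sequences are given.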

Additional observations from a re-analysis of the deposited data

Results flagged for a closer look

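Between fibroblasts and iPS cells, the 5mC share over each whole class went in opposite directions at interrupted and at all-stage peaks. iPS minus fibroblast, it differed by 4.33 points at interrupted peaks (30.5% in iPS cells and 26.2% in fibroblasts) and by -12.6 points at all-stage peaks (34.5% and 47.0% in the same order). Fibroblast-only peaks went in the direction of interrupted peaks, at 11.6% in iPS cells and 10.7% in fibroblasts. Day-3-only peaks went in that of all-stage peaks, at 10.2% and 18.4%. The opposite directions at interrupted and all-stage peaks singled this result out. The difference was not tested, since each stage has 1 5mC library. The iPS share was above the fibroblast share at interrupted peaks on 18 of 19 autosomes. By score, it was found in the higher-scoring peaks. In score groups 1, 2 and 3 of 5, counted from the lowest, the iPS share of interrupted peaks was below the fibroblast share, as in all-stage peaks, at 22.4% and 29.7%, 21.6% and 25.5%, and 24.4% and 24.9%. In groups 4 and 5 it was above it, at 30.3% and 22.9%, and 49.0% and 29.1%. Fibroblast-only peaks also changed direction with score, at 7.97% and 8.51% in group 1 and 30.0% and 23.1% in group 5. Below 750 bp of width the iPS share of interrupted peaks was also the lower, at 20.7% and 23.0%.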

How the results depend on the processing

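Each result was recomputed under up to 7 alternatives, and the differences between classes and between stages, and the share with iPS but no day-3 5mC, were added after seeing the data. Of 90 recomputed values, 43 stayed within the interval of the reported value (for the count, within 1.5 times), 46 moved beyond it without a change of sign and 1 reversed. The cause was not tested.

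With every list cut to its 42301 highest scores, interrupted peaks numbered 5879, with 5mC on 31.7% (fibroblast), 32.0% (day 3) and 45.2% (iPS), at no stage on 40.7%, on the iPS but not the day-3 list at 24.3%, and with day-3 5hmC within 1 kb at 7.69%. Interrupted minus all-stage was then -14.1 points for fibroblast, -16.4 for day-3 and 4.84 for iPS 5mC (reversed), and 13.96 for iPS without day-3 5mC. iPS minus fibroblast was 13.5 at interrupted and -5.37 at all-stage peaks. With a score of at least 100, the number was 6553 and the shares were 18.0%, 31.8%, 21.1%, none 58.2%, iPS without day-3 8.93%, within 1 kb 7.75%. Interrupted minus all-stage was -29.3 for day-3 and 6.31 for iPS without day-3 5mC, and iPS minus fibroblast was 3.05 at interrupted peaks.

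With an overlap of at least 50% the shares were 22.4%, 35.5%, 29.2%, none 50.5%, iPS without day-3 12.5%, within 1 kb 16.7%, the class differences -1.74 for iPS and 8.73 for iPS without day-3 5mC, and iPS minus fibroblast 6.81. With the centre inside, they were 22.1%, 35.0%, 28.98%, 50.9%, 12.5%, 15.8%, -2.03, 8.70 and 6.84 in that order. Without day-3 5hmC within 1000 bp the shares were 25.2%, 38.8%, 29.7% and none 48.5%, and the day-3 class difference was -28.0. Joining peaks moved the share within 1 kb to 10.4%. Restriction to autosomes moved none of the results. Replicate libraries could not be paired, because there is 1 library per stage and mark. For iPS minus fibroblast, both lists met the same peaks, but the interval was formed as for independent groups.

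Depth is unknown, so an unlisted peak can be one too weak for the library.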
